A study of Homo sapiens with 6 samples.

Results

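The genes described are 46 genes of protein folding and quality control in the endoplasmic reticulum (ER): chaperones and their cofactors, disulfide isomerases and oxidases, components of ER-associated degradation, and genes of the translocon, of export from the ER and of the ER membrane. They were taken by symbol from a list of names by role, and that list was drawn up with earlier results of these data known. Of these, 44 were measured by a probe that carries 1 gene symbol, out of 18336 genes measured in this way, and they were covered by 58 of the 31741 probes of the array. HSP90B1 and TXNDC5 were named only by probes that carry several symbols and were not measured here. The cells were TFK-1, a human line established from a cholangiocarcinoma of the bile duct outside the liver. There were 3 samples with HOXA5 overexpression and 3 normal control samples, each on 1 single-colour Human OneArray slide. Cells of both groups had been transduced with lentivirus, with a Flag-tagged HOXA5 construct or the corresponding negative control per the study's methods, and selected with puromycin into stable lines. The study's methods refer in general to separate experiments, but neither they nor the labels say whether the arrays of a group came from independent transductions or cultures, and p-values therefore reflect spread among replicates that may be only technical.

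Proteins that are secreted or placed in membranes enter the ER through the translocon, are folded there by chaperones such as BiP (encoded by HSPA5) and by the lectins calnexin and calreticulin, and gain their disulfide bonds from protein disulfide isomerases that are reoxidised by ERO1 oxidases. Proteins that do not fold are recognised by mannosidases and lectins, moved back to the cytosol by a membrane complex built around the ubiquitin ligase HRD1 (encoded by SYVN1) and its partner SEL1L, extracted by the ATPase p97 (encoded by VCP) and degraded by the proteasome. When unfolded proteins accumulate, 3 sensors, IRE1, PERK and ATF6, start the unfolded protein response, whose transcription factors ATF6, XBP1 and ATF4 raise genes of this kind.

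The best known control element of these genes is the ER stress response element (ERSE), in which a CCAAT box bound by NF-Y lies upstream of CCACG, the part bound by ATF6 or XBP1. The letters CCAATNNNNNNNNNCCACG were searched on both strands in the 250 bases before each annotated start of a gene, in promoter sequences from RefSeq on GRCh38.p14. A gene with several starts was counted when the window of any of them held the element. A promoter was found for 42 of the 46 genes, and 8 of these (19%) held the ERSE, against 25 of all 27305 genes with a promoter (0.0916%). The shorter ERSE-II, searched as ATTGGNCCACG, was present in 3 of the 42 (7.14%), against 18 of all genes (0.0659%). Both elements are known from genes of this kind, so their larger share among the members is not an independent result. Shown here in the direction of the gene, with 15 bases on each side where the window allows and the element in capitals, are the elements of the 5 measured genes that were called higher and held an ERSE, of the other pair that held one (CANX and SERP1, not called), and of the 3 genes with an ERSE-II, all called higher.
HSPA5 ERSE, chr9:125241376-125241424, minus strand: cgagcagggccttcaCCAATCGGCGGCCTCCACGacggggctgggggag
CALR ERSE, chr19:12938369-12938417, plus strand: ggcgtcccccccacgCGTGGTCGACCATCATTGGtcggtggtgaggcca
CRELD2 ERSE, chr22:49918539-49918587, plus strand: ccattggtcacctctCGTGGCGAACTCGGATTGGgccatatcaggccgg
PDIA6 ERSE, chr2:10812838-10812886, minus strand: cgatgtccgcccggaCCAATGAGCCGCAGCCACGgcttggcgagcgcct
ERO1B ERSE, chr1:236282168-236282208, minus strand: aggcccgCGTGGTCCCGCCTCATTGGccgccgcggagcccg
CANX ERSE, chr5:179698763-179698811, plus strand: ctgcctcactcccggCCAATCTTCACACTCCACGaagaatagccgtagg
SERP1 ERSE, chr3:150546695-150546743, minus strand: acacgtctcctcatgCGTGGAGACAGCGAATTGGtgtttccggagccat
HERPUD1 ERSE-II, chr16:56932010-56932050, plus strand: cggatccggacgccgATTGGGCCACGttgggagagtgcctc
HYOU1 ERSE-II, chr11:119057365-119057405, minus strand: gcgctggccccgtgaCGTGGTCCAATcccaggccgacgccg
HYOU1 ERSE-II, chr11:119057259-119057299, minus strand: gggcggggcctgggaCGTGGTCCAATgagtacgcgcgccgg
SDF2L1 ERSE-II, chr22:21642099-21642139, plus strand: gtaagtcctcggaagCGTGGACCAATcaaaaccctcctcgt
In CALR, CRELD2, ERO1B, SERP1, HYOU1 and SDF2L1 the element lies on the opposite strand and is read as its reverse complement. The elements of CANX and PDIA6 precede starts that lie inside the full annotated span of the gene. The eighth gene with an ERSE was HSP90B1, which was not measured. In the 150 bases next to the start of HSPA5 (chr9:125241344-125241493, minus strand), the capitals mark every CCAAT and CCACG on either strand, of which there are 2 and 1, and only the CCAAT nearer to the start has CCACG at the ERSE spacing.
HSPA5 upstream: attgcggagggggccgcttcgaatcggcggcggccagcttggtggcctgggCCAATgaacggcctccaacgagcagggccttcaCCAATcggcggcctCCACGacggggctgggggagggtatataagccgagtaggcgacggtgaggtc
Other elements of the stress response were searched in the same windows. TGACGTG, a site bound by ATF6 or XBP1, was present in 4 of the 42 genes (9.52%; DNAJC10, HYOU1, TXNDC5 and VCP), against 561 of all genes (2.05%), and in HYOU1 it overlaps the ERSE-II farther from the start. TGATGNAA, bound by ATF4 with a C/EBP partner, was found in 1 of the 42 (2.38%; HERPUD1), against 1061 of all genes (3.89%). None of the 4 patterns was in the windows of DNAJB9, DNAJC3, MANF, SEL1L, EDEM1 or OS9, which says only that these letters are not in the window. Matches of letters are a description, and binding was not measured.

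Array quality and the labels were examined first. Median raw intensity was 95 to 177 on the HOXA5 arrays and 126 to 180 on the control arrays, and 17150 to 21154 probes per array were detected, meaning that their deposited flag was 0. Probes without this flag are called dim. Arrays of the same group correlated at r = 0.9899 to 0.9948 in controls, while HOXA5 replicate 2 correlated at 0.9789 and 0.9731 with the other HOXA5 arrays, which correlated at 0.9923 with each other. The HOXA5 probe PH_hs_0035417 had raw intensities of 110, 118 and 49 in controls, where it was dim on 1 array. With overexpression it had 585, 502 and 312, a log2 change of 1.94 ± 0.12 (SE, n = 3 per group, limma, adjusted p = 0.000766). Its mean normalized log2 intensity was below that of the other HOXA5 probe in controls (7.07 against 7.89). It was above it only with overexpression (9.01 against 7.55), so these probes disagree and the labels are not settled by them. The other HOXA5 probe (PH_hs_0002929) changed by -0.34 ± 0.07 (limma, adjusted p = 0.0253), a call lost with median scaling, 75th percentile scaling and the authors' values (adjusted p = 0.128, 0.142 and 0.176), with only detected probes or an intensity trend (adjusted p = 0.0547 and 0.0954), and without control replicate 1, 2 or 3 or HOXA5 replicate 1 (adjusted p = 0.0703 to 0.0899). Where the HOXA5 probes lie in the transcript was not analysed here, so whether a probe can see the construct is unknown. Of 7 measured epithelial and biliary markers, KRT8, KRT19, EPCAM, CDH1, SOX9 and CLDN4 were detected on all 6 arrays and KRT7 on all but 1 HOXA5 array. In this list 4 markers (57.1%, against 13.1% of all genes) were called higher, CDH1 (1.40), CLDN4 (1.16), SOX9 (0.75) and KRT19 (0.44). KRT7 (-0.20), KRT8 (-0.13) and EPCAM (0.14) were not called. Its summed raw intensity was 56412 to 75243 in controls and 65694 to 96589 with HOXA5, and the part of this difference in the results was not tested. Of the hepatocyte markers, ALB and CYP3A4 were dim on all 6, APOA1 was higher (0.89 ± 0.19, limma, adjusted p = 0.0279), and the summed raw intensity of the 4 markers was 363 to 608 in controls and 431 to 943 with HOXA5. No fibroblast, leukocyte or endothelial marker was called (10 measured), and the part of such cells in the changes below was not tested.

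Genes of ER folding and degradation were broadly higher with HOXA5 overexpression. At an adjusted p under 0.05, 24 of the 44 measured genes were higher and 0 were lower, against 2399 (13.1%) and 2010 (11%) of all 18336 genes. No member was lower at an unadjusted p under 0.05 either. At the study's added threshold of a 2-fold change, 15 members were higher and 0 lower, against 703 (3.83%) and 438 (2.39%) of all genes. SYVN1 is among the 15 through a probe chosen by its HOXA5 values, as given below. All 3 HOXA5 arrays lay above all 3 control arrays in 27 members and below them in 0, against 21.0% and 20.4% of all genes. The median change was 0.67 on the log2 scale, with a range from -0.19 to 3.64, against -0.01 for all genes, and 40 members had a positive and 4 a negative change. These changes are differences of normalized log2 intensity, HOXA5 minus control, from limma. The RNA came from whole cultures, so a higher level in each cell and a larger share of cells at a high level cannot be told apart.

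The higher levels were seen on each HOXA5 array. With every gene set to 0 at its control mean, the median of the 44 members was -0.03, 0.01 and 0.04 on control replicates 1, 2 and 3 and 0.68, 0.59 and 0.65 on HOXA5 replicates 1, 2 and 3. HOXA5 replicate 2 was the lowest of the HOXA5 arrays in 23 of 44 members (52.3%), against 34.1% of all genes, and HOXA5 replicate 1 was the highest in 19 (43.2%), against 23.3%. Without HOXA5 replicate 2, 26 members were called higher, 15 of them by at least 2-fold, and 1 was called lower. Over all genes in that fit, 15.3% were higher and 14.3% lower. With the authors' own normalized values in place of quantile normalization, 14 members (31.8%) were higher and 0 lower, against 5.79% of all genes higher in that fit. Of the 24 called members, 13 stayed called under all 16 alternatives, namely HSPA5, DNAJB9, DNAJC3, MANF, CRELD2, UGGT2, PDIA4, PDIA5, ERO1B, HERPUD1, SEL1L, EDEM1 and OS9.

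**Figure D1:**
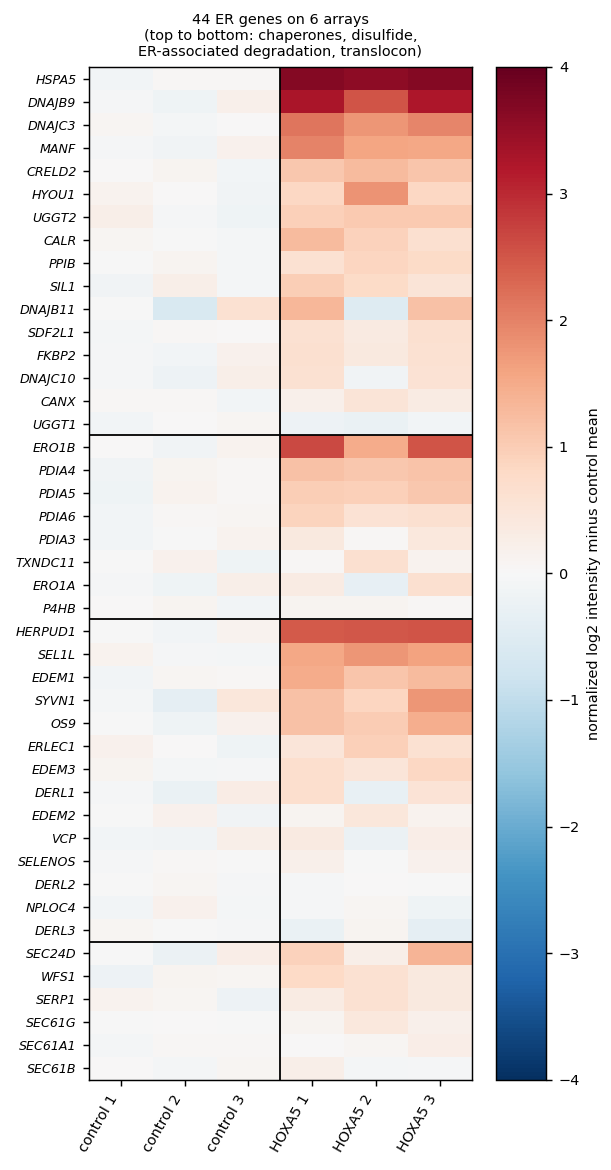
Normalized log2 intensity of the 44 measured genes (rows, grouped by role and ordered by change) on the 6 arrays (columns), each gene set to 0 at its control mean and coloured from blue (below it) to red (above it). The 3 HOXA5 columns are red for most rows, with HSPA5 and DNAJB9 the darkest, and HOXA5 replicate 2 is paler than its neighbours for DNAJB9, DNAJB11, ERO1B and DERL1 and darker for HYOU1.

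Among the chaperones and their cofactors, 12 of the 16 measured genes were higher and 0 lower, 7 of them by at least 2-fold, with a median change of 0.85. HSPA5 (chr9:125234853-125241343 on GRCh38.p14), which encodes BiP, the main Hsp70 of the ER lumen, had normalized log2 intensities of 8.86, 9.01 and 9.02 in controls and of 12.64, 12.55 and 12.62 with HOXA5. Raw intensity went from 398 to 517 in controls to 4510 to 6993 with HOXA5. The groups were far apart, with the lowest HOXA5 array 3.53 above the highest control. The change was 3.64 ± 0.07, or 12.5-fold (limma, adjusted p = 5.82e-05), which ranked 4 among the rises of all 18336 genes with saturated probes, HERPUD1 among them, at their capped values.

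Cochaperones of the J domain family, which deliver clients to BiP and drive its ATPase, split into genes with large rises and genes that were not called. DNAJB9 (chr7:108569874-108574850), known for holding the sensor IRE1 inactive through BiP and for feeding degradation, read 7.79, 7.64 and 8.04 in controls and 11.08, 10.35 and 11.07 with HOXA5. It was lowest on replicate 2 in both groups, which nevertheless did not overlap, and it rose by 3.01 ± 0.23, or 8.06-fold (limma, adjusted p = 0.00129). DNAJC3, the p58IPK cochaperone that also binds the kinase domain of PERK, read 11.41, 11.24 and 11.36 in controls and 13.49, 13.10 and 13.30 with HOXA5, a rise of 1.96 ± 0.11 (limma, adjusted p = 0.000672). A second DNAJC3 probe rose by 1.24 ± 0.17 (adjusted p = 0.00612). By contrast, DNAJB11, the soluble cochaperone ERdj3, read 10.54, 9.94 and 11.17 in controls and 11.87, 10.05 and 11.71 with HOXA5, and it was not called (0.66 ± 0.58, limma, adjusted p = 0.506). Its replicates differed more within a group than the groups differed, and replicate 2 was the lowest in both. DNAJC10, a J protein with reductase activity, gave 0.35 ± 0.24 (limma, adjusted p = 0.384). Without HOXA5 replicate 2, DNAJC10 was called (0.61 ± 0.14, adjusted p = 0.0333), and DNAJB11 was at 1.24 without being called (adjusted p = 0.0710, the lowest over its 16 alternatives).

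BiP releases its client when its ADP is exchanged, and the exchange factors are HYOU1, a large Hsp70 relative also called GRP170, and SIL1. HYOU1 read 10.93, 10.78 and 10.63 in controls and 11.62, 12.57 and 11.61 with HOXA5. All HOXA5 arrays lay above the controls, but replicate 2 was much higher than the other 2, the reverse of the order seen for DNAJB9. The rise was 1.15 ± 0.28 (limma, adjusted p = 0.0409). It was not called with the authors' values (adjusted p = 0.135), without control replicate 1, 2 or 3 (adjusted p = 0.106, 0.115 and 0.124) or without HOXA5 replicate 1 or 3 (adjusted p = 0.0607 and 0.0558), within a range of 0.00684 to 0.135 over 16 alternatives. SIL1 rose by 0.74 ± 0.16 (limma, adjusted p = 0.0250), from 8.85 to 9.21 in controls to 9.49 to 9.95 with HOXA5. SIL1 was not called with the authors' values (adjusted p = 0.182) or without control replicate 1 or 3 or HOXA5 replicate 1 (adjusted p = 0.0952, 0.0852 and 0.0603), within a range of 0.0152 to 0.182.

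MANF, CRELD2 and SDF2L1 encode small ER proteins known as targets of the unfolded protein response. MANF, which binds BiP and can also be secreted, read 10.50, 10.39 and 10.72 in controls and 12.53, 12.12 and 12.08 with HOXA5. It rose by 1.71 ± 0.15, or 3.27-fold, with no overlap between groups (limma, adjusted p = 0.00191). CRELD2, a protein with EGF-like domains, read 11.98, 12.06 and 11.85 in controls and 13.03, 13.25 and 13.07 with HOXA5, a rise of 1.15 ± 0.09 (limma, adjusted p = 0.00127). The 3 arrays of each group lay close together, so this rise had a smaller error than that of HYOU1, which was of the same size. SDF2L1, which forms a complex with the product of DNAJB11, was bright on all arrays, at 14.21 to 14.35 in controls and 14.66 to 14.95 with HOXA5, and rose by 0.55 ± 0.09 (limma, adjusted p = 0.0134). SDF2L1 lost its call with median scaling, 75th percentile scaling and the authors' values (adjusted p = 0.138, 0.0918 and 0.0677) and without control replicate 1 or 3 (adjusted p = 0.0613 and 0.0532), within a range of 0.00357 to 0.138.

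In the lectin chaperone cycle, CALR and UGGT2 were called higher, and CANX and UGGT1 were not called. CALR, which encodes the soluble lectin calreticulin, read 10.63, 10.54 and 10.45 in controls and 11.81, 11.48 and 11.20 with HOXA5, and rose by 0.95 ± 0.16 (limma, adjusted p = 0.0134). It was not called with the authors' values (adjusted p = 0.121) or without control replicate 2 or 3 (adjusted p = 0.0527 and 0.0543), within a range of 0.00679 to 0.121. CANX, which encodes its membrane-bound relative calnexin, read 15.22, 15.21 and 15.05 in controls and 15.36, 15.66 and 15.50 with HOXA5. The CANX groups did not overlap, but the change of 0.35 ± 0.10 was not called (limma, adjusted p = 0.0643). UGGT1 and UGGT2 encode the glucosyltransferases that tag unfolded glycoproteins for another round of lectin binding. UGGT2 read 9.39, 9.09 and 8.96 in controls and 10.10, 10.20 and 10.18 with HOXA5, a rise of 1.02 ± 0.12 (limma, adjusted p = 0.00406). UGGT1 read 9.41, 9.54 and 9.60 in controls and 9.31, 9.26 and 9.42 with HOXA5, and its change of -0.19 ± 0.08 was not called (limma, adjusted p = 0.157). Of the prolyl isomerases, PPIB (cyclophilin B) rose by 0.75 ± 0.09 (limma, adjusted p = 0.00402) and FKBP2 by 0.54 ± 0.12 (adjusted p = 0.0258). PPIB was not called with the authors' values (adjusted p = 0.0537, the highest of its alternatives). FKBP2 was not called with median or 75th percentile scaling or the authors' values (adjusted p = 0.186, 0.137 and 0.146), nor without control replicate 1 or 2 or HOXA5 replicate 1 or 3 (adjusted p = 0.101, 0.0869, 0.0739 and 0.0783), within a range of 0.00940 to 0.186.

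**Figure D2:**
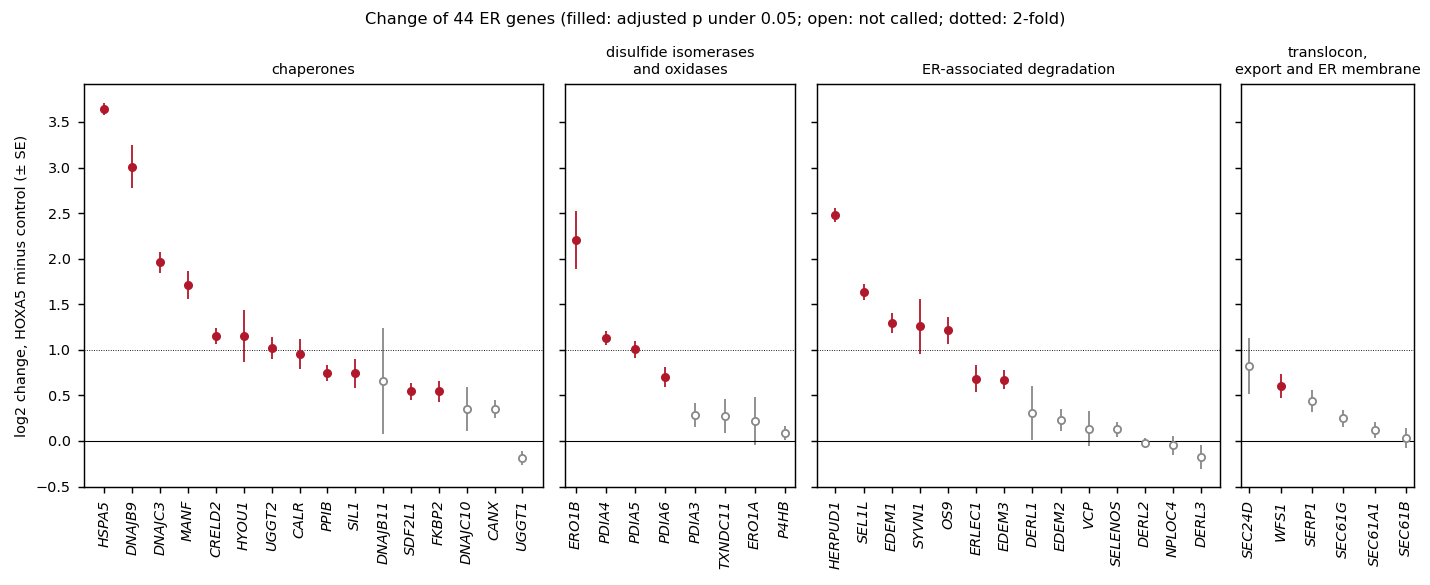
Log2 change of each of the 44 measured genes, HOXA5 minus control, with its SE from limma (3 arrays per group), in 4 groups by role. Filled points have an adjusted p under 0.05, open points were not called and the dotted line marks 2-fold. Filled points fill the left of each of the first 3 panels, up to 3.64 for HSPA5, and 1 of 6 points is filled in the last.

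Among the disulfide isomerases and oxidases, 4 of 8 measured genes were higher and 0 lower, 3 of them by at least 2-fold, with a median change of 0.49. The largest change was that of ERO1B (chr1:236215101-236281958), which encodes an oxidase known best from pancreatic beta cells. ERO1B read 7.24, 7.08 and 7.38 in controls and 9.86, 8.71 and 9.74 with HOXA5, with HOXA5 replicate 2 above the controls but well below the other HOXA5 arrays. It rose by 2.20 ± 0.32, or 4.6-fold (limma, adjusted p = 0.00778). Its other probe was dim on all 6 arrays (0.15 ± 0.09, limma, adjusted p = 0.302), and with the mean of both probes the change was 1.18 ± 0.20 (adjusted p = 0.00888, within a range of 0.000976 to 0.0397 over the alternatives). The widely expressed relative ERO1A read 9.49, 9.38 and 9.78 in controls and 9.88, 9.23 and 10.20 with HOXA5. The ERO1A groups overlapped, and the change was not called (0.22 ± 0.27, limma, adjusted p = 0.637).

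The isomerases PDIA4, PDIA5 and PDIA6 were higher, while P4HB and PDIA3 were not called. PDIA4 (ERp72) read 11.49, 11.74 and 11.68 in controls and 12.80, 12.73 and 12.78 with HOXA5, a rise of 1.13 ± 0.08 (limma, adjusted p = 0.00104). PDIA5, known to act on ATF6, read 11.58, 11.89 and 11.79 in controls and 12.75, 12.70 and 12.82 with HOXA5, a rise of 1.01 ± 0.09 (limma, adjusted p = 0.00216). For both genes the 3 HOXA5 arrays lay close together, well above the controls. PDIA5 lay just past the 2-fold threshold, and its change ran from 0.86 to 1.07 over the alternatives. PDIA6, which can switch off IRE1 and PERK, rose by 0.70 ± 0.11 (limma, adjusted p = 0.00868), from 9.70 to 9.88 in controls to 10.38 to 10.70 with HOXA5, and was not called with the authors' values (adjusted p = 0.0911, the highest of its alternatives). P4HB, which encodes the founding protein disulfide isomerase, was near or at saturation, with 1 control and 2 HOXA5 arrays at a raw intensity of 65000 or more, so its change of 0.09 ± 0.08 (limma, adjusted p = 0.488) is limited by the scanner's range. PDIA3 (ERp57), which works with calnexin and calreticulin, was dim on all 3 control arrays and on 2 of 3 HOXA5 arrays. Its raw intensities were 55, 58 and 47 in controls and 102, 66 and 46 with HOXA5. These groups overlapped, no fold is given at such dim signal, and PDIA3 was not called (limma, adjusted p = 0.199), though it was called without HOXA5 replicate 2 or with array weights (adjusted p = 0.0299 and 0.0453). TXNDC11 was not called (0.27 ± 0.18, limma, adjusted p = 0.372), except with the mean of its probes (adjusted p = 0.0263).

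**Figure D3:**
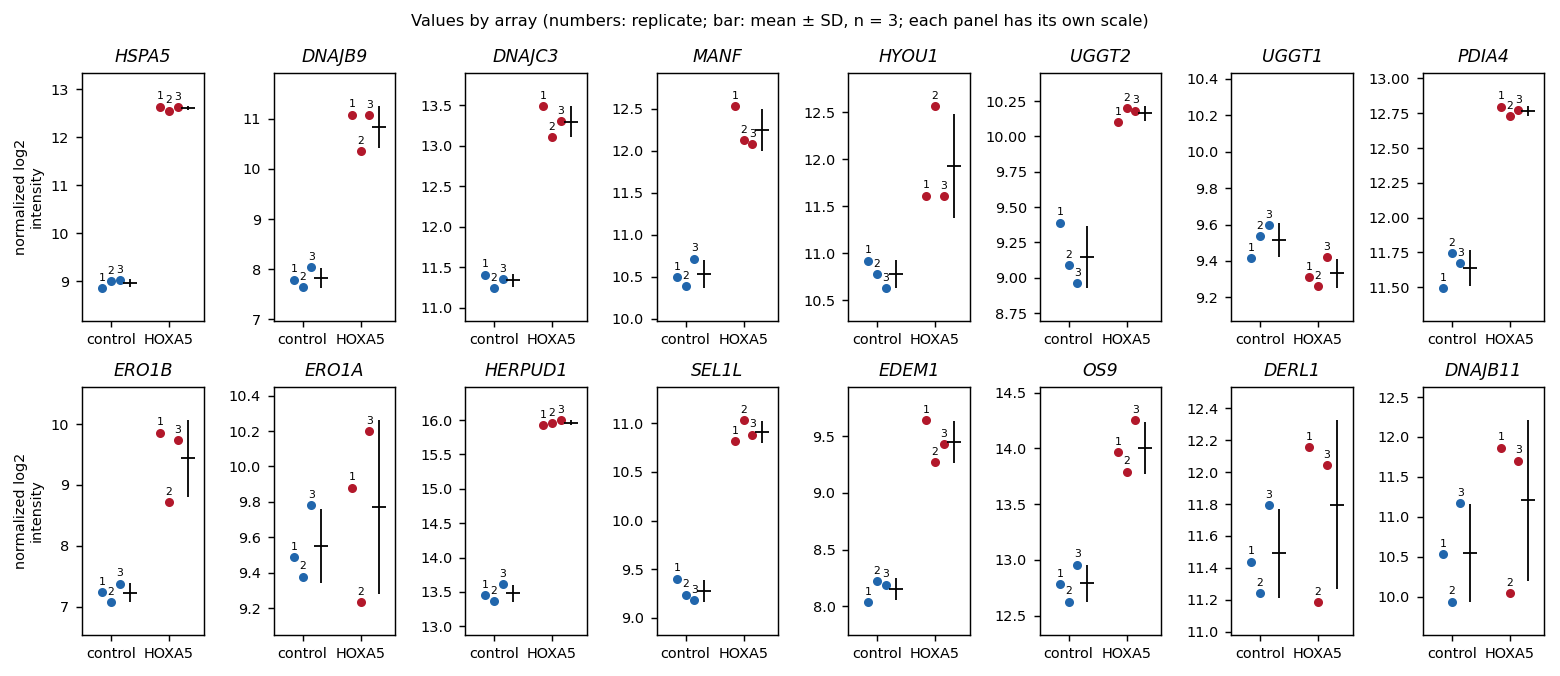
Normalized log2 intensity on each array for 16 of the genes, with controls in blue, HOXA5 overexpression in red, the replicate number above each point and the mean ± SD (n = 3) as a black bar. Each panel has its own scale, so heights are not comparable between genes. HSPA5 and PDIA4 show tight groups far apart, the HOXA5 arrays of HERPUD1 sit together at the limit of the scanner, ERO1B and DNAJB9 a low HOXA5 replicate 2, HYOU1 a high one, and in DERL1, ERO1A and DNAJB11 the groups overlap.

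In ER-associated degradation, 7 of 14 genes were higher and 0 lower, 5 of them by at least 2-fold, with a median change of 0.49. HERPUD1 (chr16:56932142-56944864) encodes a membrane protein that binds the HRD1 complex and is among the most strongly induced genes of ER stress. Its raw intensity was 12921, 12817 and 11862 in controls and 65512, 65510 and 65513 with HOXA5, so all 3 HOXA5 arrays were saturated. The rise is therefore a bound, at least 5.59-fold on the quantile normalized scale (limma, adjusted p = 0.000206). On the log2 scale the measured change was 2.39 to 2.55 over the alternatives. Capped readings can understate the spread among HOXA5 arrays, so this p-value does not measure it. SEL1L, the adaptor of the ligase HRD1, read 9.40, 9.24 and 9.19 in controls and 10.82, 11.03 and 10.88 with HOXA5, a rise of 1.64 ± 0.09 (limma, adjusted p = 0.000635). A second SEL1L probe rose by 0.93 ± 0.09 (adjusted p = 0.00198), but the remaining one gave -0.52 ± 0.15 with all HOXA5 arrays below all controls and was not called (adjusted p = 0.0676), and with the mean of all 3 the change was 0.68 ± 0.08. Which transcripts these probes match was not analysed here. SYVN1, which encodes HRD1 itself, read 7.36, 7.08 and 7.88 in controls and 8.60, 8.31 and 9.19 with HOXA5. The replicates kept the same order in both groups, and the rise was 1.26 ± 0.30 (limma, adjusted p = 0.0374), with 0.73 ± 0.16 for a second probe (adjusted p = 0.0267). The probe used was the dimmer in controls (mean 7.44 against 7.62) and the brighter with HOXA5 (8.70 against 8.35). It was thus chosen through its HOXA5 values, and the second probe did not reach 2-fold. SYVN1 was not called without control replicate 1 or 2 (adjusted p = 0.129 and 0.110) or HOXA5 replicate 1 or 3 (adjusted p = 0.0913 and 0.0740), within a range of 0.00333 to 0.129.

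Substrates reach this complex through mannosidases of the EDEM family, which trim the glycan of a misfolded protein, and through the lectins OS9 and ERLEC1, which read the trimmed glycan. EDEM1 read 8.04, 8.22 and 8.19 in controls and 9.64, 9.27 and 9.43 with HOXA5, a rise of 1.30 ± 0.11 (limma, adjusted p = 0.00178). EDEM3 rose by 0.67 ± 0.11 (limma, adjusted p = 0.0103), from 8.37 to 8.55 in controls to 8.94 to 9.28 with HOXA5, and missed the threshold with the authors' values (adjusted p = 0.0549, the highest of its alternatives). EDEM2, which makes the first cut, overlapped between groups and was not called (0.23 ± 0.13, limma, adjusted p = 0.280). OS9 read 12.78, 12.63 and 12.96 in controls and 13.97, 13.79 and 14.26 with HOXA5, a rise of 1.22 ± 0.15 (limma, adjusted p = 0.00443), and the order of the replicates was again the same in both groups. ERLEC1 rose by 0.68 ± 0.15 (limma, adjusted p = 0.0291), from 11.10 to 11.43 in controls to 11.75 to 12.22 with HOXA5. It was not called with the authors' values (adjusted p = 0.185), without control replicate 1, 2 or 3 (adjusted p = 0.0638, 0.0905 and 0.0897) or without HOXA5 replicate 3 (adjusted p = 0.0686), within a range of 0.0190 to 0.185.

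The remaining members of this group, the derlins, VCP, NPLOC4 and SELENOS, were not called with the probe used. The derlins are membrane proteins of the retrotranslocation channel. DERL1 read 11.44, 11.24 and 11.79 in controls and 12.16, 11.19 and 12.04 with HOXA5 (0.30 ± 0.30, limma, adjusted p = 0.553), and its other probe gave -0.46 ± 0.42 (adjusted p = 0.516). DERL2 was dim on all 6 arrays (-0.02 ± 0.06), so no change could be seen for it. DERL3 gave -0.17 ± 0.13 (limma, adjusted p = 0.446), but without HOXA5 replicate 2 it was the 1 member called lower (-0.31 ± 0.07, adjusted p = 0.0395, the lowest of its alternatives). VCP, the ATPase that pulls substrates out of the membrane, read 13.56, 13.52 and 13.88 in controls and 14.02, 13.41 and 13.92 with HOXA5 (0.13 ± 0.19, limma, adjusted p = 0.709). Its cofactor NPLOC4 gave -0.05 ± 0.10 (adjusted p = 0.808). SELENOS, a selenoprotein that anchors VCP at the ER, gave 0.13 ± 0.08 with its brightest probe (limma, adjusted p = 0.348), 0.44 ± 0.08 with a dimmer one that was called (adjusted p = 0.0154) and 0.15 ± 0.13 with the remaining one, and it was called with the mean of its probes (0.24 ± 0.07, adjusted p = 0.0472).

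Genes of the translocon, of export and of the ER membrane had the lowest median change of the 4 groups, 0.35. In this group 1 of 6 was called higher (16.7%, near the 13.1% of all genes) and 0 by at least 2-fold (3.83% of all genes). The channel subunits SEC61A1, SEC61B and SEC61G gave 0.12 ± 0.09, 0.03 ± 0.11 and 0.25 ± 0.09 and were not called (limma, adjusted p = 0.408, 0.879 and 0.125). SEC61G was higher on all HOXA5 arrays, at 13.56, 13.87 and 13.65 against 13.42, 13.47 and 13.44 in controls, by a margin of 0.08. SERP1, which stabilises membrane proteins at the translocon, also did not overlap (11.96, 11.91 and 11.62 in controls, 12.17, 12.44 and 12.21 with HOXA5), but its change of 0.44 ± 0.12 was not called (limma, adjusted p = 0.0573). It was called when gene means were tested, where fewer p-values are adjusted (adjusted p = 0.0458, within a range of 0.0458 to 0.443 over the alternatives). SEC24D, a cargo adaptor of COPII vesicles, read 10.03, 9.80 and 10.30 in controls and 10.95, 10.27 and 11.40 with HOXA5. Its lowest HOXA5 array lay just below its highest control, and it was not called (0.83 ± 0.31, limma, adjusted p = 0.126). Without HOXA5 replicate 2, SEC24D was called (1.13 ± 0.21, adjusted p = 0.0201), as it was with array weights (adjusted p = 0.0262), within a range of 0.0201 to 0.297. WFS1, an ER membrane protein mutated in Wolfram syndrome, was the member called here, with 10.03, 10.33 and 10.32 in controls and 11.03, 10.84 and 10.63 with HOXA5 (0.60 ± 0.14, limma, adjusted p = 0.0314). The WFS1 call was lost with median scaling and the authors' values (adjusted p = 0.0613 and 0.241) and without control replicate 1, 2 or 3 (adjusted p = 0.0959, 0.0701 and 0.0733) or HOXA5 replicate 1 or 2 (adjusted p = 0.0767 and 0.0570), within a range of 0.0222 to 0.241.

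Close relatives were compared within arrays, a comparison chosen after their values were seen. For 8 pairs, the difference between the normalized log2 values of both genes was taken on each array and compared between groups by a two-sided exact permutation test, which with 3 against 3 arrays cannot go below p = 0.1. Each such difference is one of changes, not of levels. UGGT2 changed by 1.20 ± 0.19 more than UGGT1, and ERO1B by 1.98 ± 0.16 more than ERO1A. EDEM1 changed more than EDEM2 and EDEM3, whose changes relative to it were -1.07 ± 0.23 and -0.62 ± 0.16. In these 4 pairs the groups did not overlap and the exact p was the smallest possible, 0.1 (0.2 after adjustment over the 8 pairs). EDEM3 against EDEM2 gave 0.44 ± 0.23 (exact permutation p = 0.3, adjusted 0.4), and the 3 derlin pairs overlapped between groups (exact permutation p = 0.3 to 0.4).

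Probes beside the one used were available for 12 members. There were 14 of them, of which 2 were dim on all 6 arrays. Of the 5 that belong to called members, 3 were called higher, for DNAJC3, SEL1L and SYVN1, and the others were the dim ERO1B probe and the SEL1L probe with a negative change. Of the 9 that belong to members not called, 1 was called higher, that of SELENOS. No other probe was called lower. For 20 of the 24 called members a single probe carries the result. No called member was dim on any array.

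**Figure D4:**
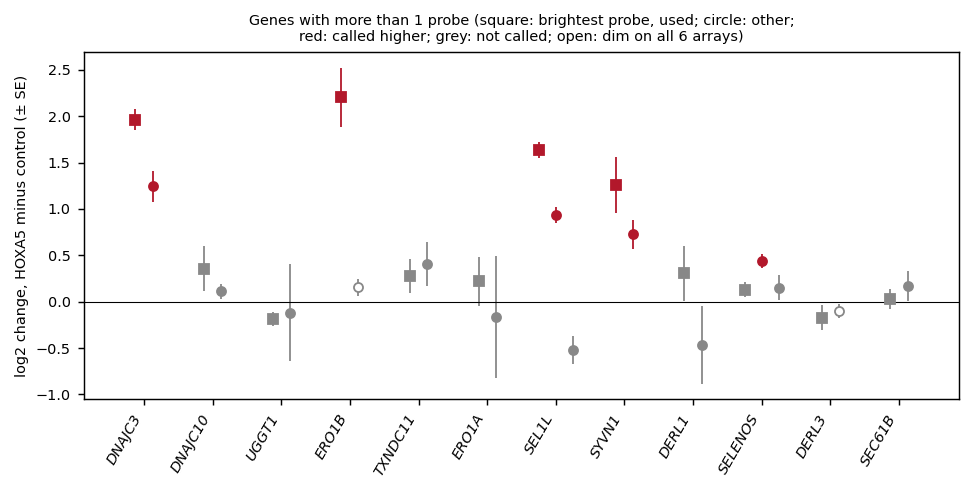
Log2 change of every probe, HOXA5 minus control, with its SE from limma (3 arrays per group), for the 12 genes with more than 1 single-symbol probe. Squares are the brightest probe, which was used, and circles are other probes, red where called higher, grey where not, and open where dim on all 6 arrays. The probes of DNAJC3 and SYVN1 moved the same way, while the 3 SEL1L probes ran from 1.64 to -0.52.

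Of the 7 measured genes that held an ERSE in a searched window, 5 were called higher (HSPA5, CALR, CRELD2, PDIA6 and ERO1B), with changes from 0.70 to 3.64. CANX and SERP1 were not called, with changes of 0.35 and 0.44. For comparison, 54.5% of the 44 measured members and 13.1% of all genes were called higher. A link between element and rise was not tested. All 3 genes with an ERSE-II were called higher, SDF2L1 by 0.55, HYOU1 by 1.15 and HERPUD1 by at least 5.59-fold on the quantile normalized scale. Among the measured genes with TGACGTG, HYOU1 was called, and DNAJC10 (0.35) and VCP (0.13) were not. Most of the called members, among them DNAJB9, DNAJC3, MANF and SEL1L, rose with none of these letters in their windows.

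Genes of the same pathway outside the 46 were counted from 7 further lists, set up by function but with earlier results of these data known. Of 134 genes, 127 were measured, and 24 of them (18.9%) were higher and 7 lower, with a median change of 0.10. That share of higher genes was 54.5% in the 44 members and 13.1% in all genes. The count depended on the processing, with 9 higher genes with the authors' values and 10, 11 and 9 without control replicate 1, 2 and 3. In those fits, 5.79%, 7.56%, 9.11% and 8.18% of all genes were higher. Without HOXA5 replicate 2, 11 of the 127 were lower, against 14.3% of all genes in that fit. Among sensors and transcription factors of the unfolded protein response, 6 of 14 were higher and 0 lower (median 0.43). They include DDIT3, which encodes the transcription factor CHOP, and the pseudokinase TRIB3, with 1.97 ± 0.17 (limma, adjusted p = 0.00172). DDIT3 was saturated on 2 of its 3 HOXA5 arrays, so its measured change of 4.52 is a lower limit on the quantile normalized scale. Its SE and its adjusted p of 5.82e-05 (limma) come from capped readings and do not measure the spread among replicates.

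In the other 6 lists, the share of higher genes ran from 1 of 16 to 5 of 16, against 13.1% higher and 11% lower over all genes. The shares were close to that background in the COPII list (12.5% higher), among other chaperones (15.8% higher) and in other ER-associated degradation (12.5% in each direction). In oligosaccharyltransferase and glycan trimming, 5 of 16 were higher and 0 lower (median 0.31), with the transferase subunits MAGT1 (0.99 ± 0.06) and OSTC (0.68 ± 0.16). Among signal recognition and translocon partners, 4 of 22 were higher, with SSR1 (1.19 ± 0.11), a translocon-associated protein, and the signal peptidase SEC11C (0.78 ± 0.12), and 1 was lower, SRP14 (-0.48 ± 0.08), a subunit of the signal recognition particle (median 0.06). In the COPII coat and cargo receptors, 2 of 16 were higher, the retrieval receptor KDELR3 (1.04 ± 0.20) and the outer coat gene SEC31A (0.63 ± 0.17), and the inner coat gene SEC23A was lower (-0.51 ± 0.06; median 0.11). Of 19 other ER chaperones and prolyl isomerases, 3 were higher and 0 lower (median 0.16), with DNAJC1 (0.99 ± 0.09) and FKBP7 (0.69 ± 0.16). Other disulfide isomerases had 1 of 16 higher, SELENOF (0.31 ± 0.06), a partner of the UGGT enzymes, and 2 lower, the peroxidase GPX8 (-0.64 ± 0.06) and TMX2 (-0.36 ± 0.08; median -0.09). In other ER-associated degradation, 3 of 24 were higher and 3 lower (median -0.21). DNAJB2 (0.74 ± 0.15) and the HRD1 partner FAM8A1 (0.65 ± 0.10) were on the higher side, and GET4 (-0.52 ± 0.09) and UFD1 (-0.88 ± 0.06; limma, adjusted p = 0.00104) on the lower. UFD1 forms a heterodimer with NPLOC4 as cofactor of VCP, and of these 3 genes UFD1 was the one that was called.

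Of the 19 genes named from these lists, 7 kept their call under all 16 alternatives (DDIT3, TRIB3, SSR1, MAGT1, FAM8A1, UFD1 and DNAJC1). With the authors' values, 9 were not called, namely SEC11C, SRP14, GPX8, GET4 and SEC23A (limma, adjusted p = 0.0733, 0.0657, 0.0595, 0.209 and 0.138) and OSTC, SELENOF, SEC31A and FKBP7 (adjusted p = 0.367, 0.726, 0.345 and 0.140). SEC23A was also lost with the mean of its probes (adjusted p = 0.0565). With the mean of a gene's probes, SSR1, KDELR3, FKBP7 and GET4 stayed called but their changes shrank. They were 0.79 ± 0.22, 0.67 ± 0.07, 0.50 ± 0.10 and -0.41 ± 0.08 (limma, adjusted p = 0.0484, 0.00232, 0.0149 and 0.0144). The SELENOF change fell to 0.14, 0.16 and 0.12 with median scaling, 75th percentile scaling and the authors' values and to 0.09 with the mean of its probes, and it was called in 7 of 16 alternatives. SEC31A was called in 5 of 16, and lost its call without any 1 of the 6 arrays (adjusted p = 0.0629 to 0.116). OSTC was called in 8 of 16, and was lost with median and 75th percentile scaling (adjusted p = 0.0736 and 0.0608) and without control replicate 1, 2 or 3 or HOXA5 replicate 1 or 2 (adjusted p = 0.0678 to 0.102). TMX2 was called in 9 of 16, with the highest adjusted p, 0.0959 to 0.113, without control replicate 1, 2 or 3. SELENOF also missed the threshold without each control (adjusted p = 0.0598 to 0.0711). DNAJB2 missed it without control replicate 1 or 3 or HOXA5 replicate 3 (adjusted p = 0.0583 to 0.0643). KDELR3 missed it without control replicate 1, 2 or 3 or HOXA5 replicate 1 (adjusted p = 0.0633 to 0.0696), and FKBP7 without control replicate 1, 2 or 3 or HOXA5 replicate 3 (adjusted p = 0.0809 to 0.116).

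**Figure D5:**
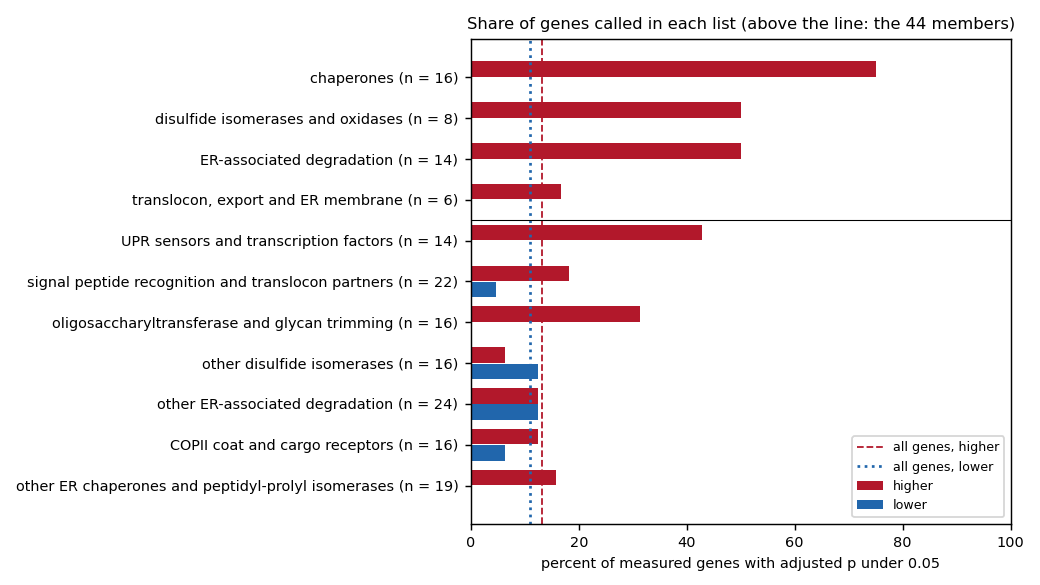
Percent of measured genes called higher (red) and lower (blue) at an adjusted p under 0.05 in the 4 groups of the 44 members (above the line) and in the 7 further lists (below it), with the number of measured genes in each label. The vertical lines mark the shares over all genes, 13.1% higher (dashed) and 11% lower (dotted). The first 3 groups and the list of sensors and transcription factors reach farthest to the right.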

How the data were processed

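Antisense RNA amplified from each of 6 samples carried Cy5 and was hybridised to a 1-colour Human OneArray slide, read with an Agilent scanner. The authors deposited raw intensity per probe and array, from -2 to 65516, with a detection p-value, not used here, and a flag (a score, 0 or another value) whose meaning is not given in the sources used here. Their second table, from GeneSpring per the methods, holds linear intensity equal to raw intensity times 1 constant per array (0.9077 to 1.128), and how the constants were set is not known.

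Raw intensity plus an offset of 50 was put on the log2 scale and quantile normalized between arrays. Group means were compared for 31741 probes, unfiltered and with no covariate, in limma 3.58.1 (R 4.3.3), with two-sided p-values and Benjamini-Hochberg adjustment across probes. Only the limma comparison was tested on simulated data, drawn as independent normal values around the normalized means. The offset, the normalization and the choice of probes were not part of that test. A fold is on the scale of intensity plus 50, so changes of dim genes come out too small. In the platform table, 24740 probes had 1 symbol, 977 several and 6024 none, and symbols of 1948 were updated to RefSeq names, which gave 3 members (ERO1A, ERO1B and SELENOS). The single-symbol probe that was brightest on average across the arrays of both groups stood for a gene, so HOXA5 values took part in the choice. Raw intensity of 65000 or more counted as saturated, and a change of a gene saturated in 1 whole group is given as a bound. The 16 alternatives were 3 other scalings, 2 other offsets (16 and 100), a filter on probes detected on at least 3 arrays, the mean of a gene's probes, a replicate block, an intensity trend, array weights and leaving out each array.

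The members and lists were chosen with earlier results of these data known. Named were all members, HOXA5, the cell type markers and, from each further list, up to 2 genes per direction with the largest change among those called. The number of arrays limits the precision.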

Additional observations from a re-analysis of the deposited data

How the results depend on the processing

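Among the members, HOXA5 and the genes named from the further lists, no called gene reversed its direction under any of the 16 alternatives. The cell type markers and the other called genes of those lists were not followed in this way. No member was lower by at least 2-fold under any alternative. Leaving out 1 array gave 17 to 26 members called higher, 12 to 15 of them by at least 2-fold, 0 to 1 member called lower and a median change of 0.56 to 0.66. With the authors' values, 14 members were higher, among them 6 chaperones (4 by at least 2-fold) and 1 disulfide gene by at least 2-fold. In the translocon group, 0 genes were higher with median scaling or the authors' values (median change 0.191 and 0.175), 2 with array weights or the mean of a gene's probes, and 0 to 1 with 1 array left out (0 to 1 by at least 2-fold). With the mean of a gene's probes, 3 genes of ER-associated degradation were higher by at least 2-fold, and with 1 array left out 0 to 1 were lower. With only detected probes, the median was 0.701 for disulfide genes and 0.672 for ER-associated degradation. These medians lose PDIA3 or DERL2, which fail the filter. Of the wider ER genes, 14, 15 and 9 were higher with median scaling, 75th percentile scaling and the authors' values, and 4 were lower with the authors' values and 11 with the mean of a gene's probes. With 1 array left out, 9 to 25 were higher and 6 to 11 lower. Of all genes, 5.79% were higher and 5.71% lower with the authors' values, and 7.56% to 15.3% higher and 5.85% to 14.3% lower with 1 array left out. With median and 75th percentile scaling, 9.65% and 10.5% of all genes were higher, and with the mean of a gene's probes 12.4% were lower. The causes of the other differences were not tested. Changes of HERPUD1 and P4HB are limited by saturation, and those of PDIA3 and DERL2 by dim signal.

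Sample titles number the replicates, but nothing ties equal numbers together, and the deviations of equally numbered arrays correlated at -0.107, 0.566 and 0.643. Not every array correlated best with its own number. With a replicate block, 25 members were higher (2 in the translocon group, where SEC24D and SERP1 gained a call and WFS1 lost it) and 14 wider ER genes were lower. Over all genes in that fit, 14.7% were higher and 13.9% lower.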
